A study of Mus musculus with 9 samples.

Results

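The gene levels described here are those of primary mouse hepatic stellate cells that had received exosomes of normal pancreatic duct cells, the baseline condition of a study of tumour exosomes. Its libraries were chosen by their label as the control group, which gave 3 of the 9 libraries of the series, and all 11051 genes with a row were described in them. The stellate cells were isolated from C57BL/6 mouse livers and grown in medium whose serum had been depleted of exosomes. They were then given exosomes, small vesicles that cells shed into their medium, collected from primary mouse pancreatic duct epithelial cells. Neither the dose of exosomes nor the time until RNA harvest is given in the sources used here, and no cells without exosomes were analysed here. The levels are therefore those of cultured stellate cells with duct cell exosomes, and the part of the exosomes in them was not tested. The labels do not state whether each library had its own culture or animal, so the spread between them may be technical.

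Hepatic stellate cells lie between the hepatocytes and the sinusoidal endothelium. In the resting liver they store vitamin A as retinyl esters in lipid droplets and express desmin and lecithin retinol acyltransferase. On injury, and spontaneously on plastic dishes, they turn into myofibroblasts, which divide, contract through smooth muscle actin (Acta2) and lay down collagen I and fibronectin.

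Values are FPKM (fragment numbers scaled to transcript length and to the library), so levels of different genes can be set side by side. No read counts were in the files and the smallest value above 0 was 2e-06 FPKM, so the depth behind each value is unknown. The FPKM values summed to 299289 in replicate 1, 269623 in replicate 2 and 269994 in replicate 3. Every gene with a row reached at least 0.537 FPKM in at least 1 of the 9 libraries. Genes with no row were not analysed here, and a missing row is not a level of 0. Means are given with the SD between libraries, and n = 3 throughout.

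Genes of activated myofibroblasts and of cell division stood well above the median gene. Of 28 genes of activated stellate cells and myofibroblasts, 25 had a row and all 25 reached 1 FPKM in every library, as did 89.5% of all genes with a row. Their median level was 69.8 FPKM, against 6.99 FPKM for all genes with a row, and 17 of the 25 were among the 1000 most abundant genes. By contrast, 9 of 31 genes of quiescent stellate cells had a row, with a median level of 6.19 FPKM, close to that of all genes with a row. Over all 48 lists, 700 of 1041 genes had a row. The share of all annotated mouse genes with a row was not worked out. All 59 listed genes of S phase, G2 and mitosis had a row and reached 1 FPKM in every library, and 48 of them were at 10 FPKM or more on average, with list medians of 19.7 FPKM for S phase and 31.1 FPKM for G2 and mitosis. These counts describe lists chosen with earlier results of these data known, and no test was made of them.

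Spp1 (osteopontin, a secreted adhesive phosphoprotein; ENSMUSG00000029304.14, chromosome 5, 104435118 to 104441050) was the most abundant gene of the activation list. It stood at 362, 404 and 369 FPKM in replicates 1, 2 and 3, a mean of 378 ± 22.2 and rank 66 of all genes. Acta2 (smooth muscle alpha actin; ENSMUSG00000035783.8, chromosome 19, 34241090 to 34255336) followed at 299, 341 and 315 FPKM, with a mean of 319 ± 21.1 and rank 84. The ranges of this pair did not overlap, since the lowest Spp1 value lay above the highest Acta2 value. Lox, the lysyl oxidase that cross-links collagen, stood at 247, 326 and 302 FPKM (mean 292 ± 40.7, rank 100), so its range overlapped that of Acta2. Col1a1 (the alpha 1 chain of collagen I; ENSMUSG00000001506.10, chromosome 11, 94936224 to 94953042) lay lower, at 93.0, 113 and 114 FPKM, with a mean of 107 ± 11.8 and rank 335. Pdgfrb, the receptor through which platelet-derived growth factor drives stellate cell division, stood at 11.4, 12.6 and 14.3 FPKM (mean 12.8 ± 1.45) and was only the 3527th gene by mean level. All 5 of these genes were lowest in replicate 1, as were 59.0% of the 9891 genes that reached 1 FPKM in every library.

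The proximal promoters of Spp1, Acta2 and S100a4 are shown since these genes led the activation list and the S100 family. Each sequence runs from 250 bases before to 50 bases after a RefSeq start (GRCm38.p6), 5′ to 3′ on the strand of the gene. Capitals mark the motif found by a search of both strands, which is the TEAD motif GGAATG in Acta2 and the letters TATAAA in Spp1 and S100a4. TATAAA is a form of the TATA box, and whether it acts as one at these places was not tested. The Acta2 window also holds tatataa, ccctatatgg and ccttgtttgg, which did not match a searched motif and are not marked. An unmarked stretch may still hold an inexact form of a motif.
Spp1, chr5:104434861-104435160, plus strand: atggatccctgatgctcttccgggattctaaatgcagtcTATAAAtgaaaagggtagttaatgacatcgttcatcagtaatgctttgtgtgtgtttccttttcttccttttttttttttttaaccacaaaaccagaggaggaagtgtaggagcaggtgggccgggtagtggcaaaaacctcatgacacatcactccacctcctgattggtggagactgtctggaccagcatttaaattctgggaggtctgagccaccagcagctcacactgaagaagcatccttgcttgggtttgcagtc
Acta2, chr19:34255324-34255623, minus strand: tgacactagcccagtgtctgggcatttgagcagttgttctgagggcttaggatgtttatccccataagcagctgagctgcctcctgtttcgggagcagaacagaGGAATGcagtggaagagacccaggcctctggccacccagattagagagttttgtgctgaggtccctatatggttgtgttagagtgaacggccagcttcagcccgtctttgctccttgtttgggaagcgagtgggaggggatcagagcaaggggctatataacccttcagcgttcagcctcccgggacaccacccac
S100a4, chr3:90603520-90603819, plus strand: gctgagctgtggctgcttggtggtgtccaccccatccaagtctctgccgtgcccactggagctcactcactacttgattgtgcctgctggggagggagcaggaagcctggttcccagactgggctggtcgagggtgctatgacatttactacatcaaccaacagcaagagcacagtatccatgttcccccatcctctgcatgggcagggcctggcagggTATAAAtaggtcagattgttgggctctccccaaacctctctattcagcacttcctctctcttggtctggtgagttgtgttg

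The Spp1 motif begins 211 bases before the start, the Acta2 motif 146 bases before it and the S100a4 motif 31 bases before it. The window of another RefSeq start of Spp1, chr5:104435942-104436241, held neither motif and is not printed. TATAAA stood in 8.15% of the promoters of the 8606 genes with a row that could be matched by symbol. Among the 100 most abundant nuclear genes it stood in 14 of the 69 that could be matched, or 20.3%, but in 1 of 28 of the actin and actin-binding list, or 3.57%. In the matrix glycoprotein list it stood in 6 of 20, or 30%. GGAATG stood in 13.9% of all these promoters and in 9 of the 28 matched genes of the actin and actin-binding list, or 32.1%. In the 100 most abundant nuclear genes it stood in 7 of 69, or 10.1%, and in the matrix glycoprotein list in 1 of 20. The motifs called CArG box and AP-1 site were searched too, and neither was found in the Acta2 window in the form searched. The CArG box stood in 4 of 28 of the actin and actin-binding list, or 14.3%, against 1.58% of all. The AP-1 site stood in 2 of these 28, or 7.14%, against 4.29% of all. In the activation list TATAAA and GGAATG each stood in 3 of 16, and the CArG box and AP-1 site each in 1 of 16. These letters are a description of the windows and not evidence that a factor was bound.

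**Figure D1:**
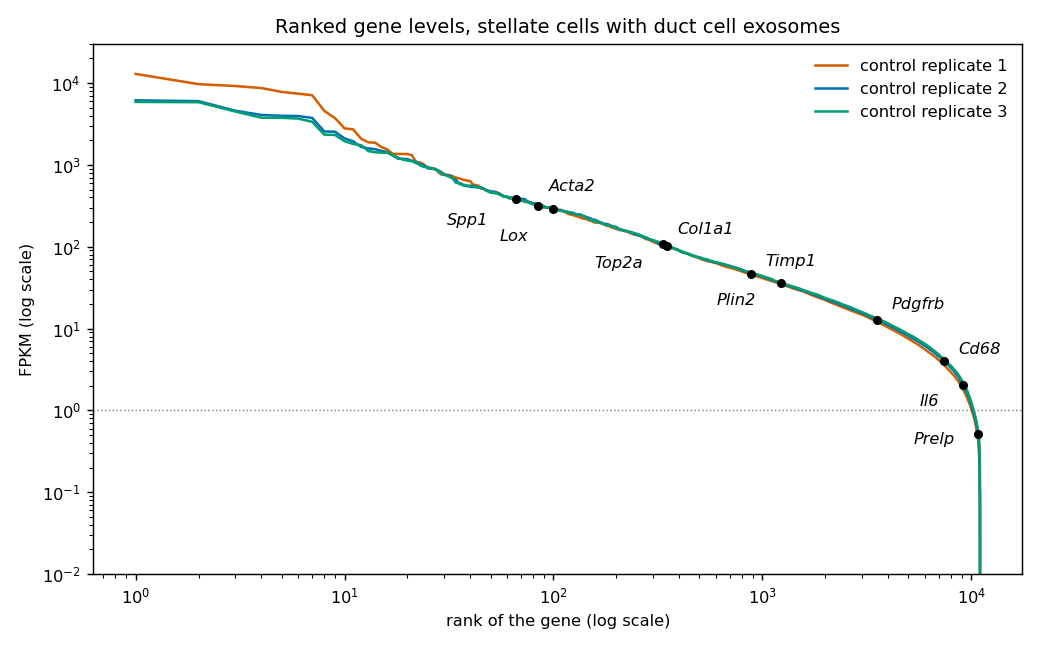
FPKM of every gene (vertical log axis) against its rank (horizontal log axis) in each of the 3 control libraries, with named genes as black points at their mean level and rank. The curves part at the highest ranks, where replicate 1 lies above the others, and run together from Spp1 (mean 378 FPKM) down to Prelp (mean 0.521 FPKM).

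The level profile was steep. The level of 1 FPKM was reached by 10039 to 10270 genes per library and by 9891 (89.5%) in all 3. A further 648 genes stayed below 1 FPKM in every library, 512 lay on both sides of it, and 4 were listed at 0 in every library. The median gene stood at 6.44, 7.06 and 7.40 FPKM in replicates 1, 2 and 3. Between 353 and 359 genes reached 100 FPKM, and 22 to 24 genes reached 1000 FPKM. A share of 50% of all FPKM was held by 187 genes in replicate 1, 347 in replicate 2 and 384 in replicate 3. Once the mitochondrially encoded genes were set aside, these counts were 564, 610 and 645. The top of the profile was shared, with 9 of the 10 most abundant genes, 45 of 50, 83 of 100 and 433 of 500 the same in all 3 libraries.

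Transcripts of the mitochondrial genome filled the top of the profile. They encode subunits of the respiratory chain and of ATP synthase, and all 13 had a row. By mean level the 11 most abundant genes were of this kind, and 12 of the 40 most abundant. mt-Nd1, a subunit of complex I (ENSMUSG00000064341.1, mitochondrial genome, 2751 to 3707), stood first by mean level, at 12934, 6006 and 5879 FPKM. mt-Co1, the catalytic subunit of cytochrome oxidase, stood at 9192, 6150 and 5831 FPKM, and mt-Cytb, of complex III, at 9688, 4589 and 4484 FPKM. Replicate 1 was the highest library for all of these. The 13 genes held 26.4% of FPKM in replicate 1 but 15.9% and 14.9% in replicates 2 and 3. They did not all shift alike, since mt-Co3, another oxidase subunit, stood at 2714, 2562 and 2322 FPKM. The ratio of mt-Nd1 to mt-Co3 was 4.77 in replicate 1 and 2.34 and 2.53 in replicates 2 and 3.

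The machinery of protein synthesis came next. Cytosolic ribosomal proteins, a family picked by symbol after the values were seen, had 81 rows and held 10.1%, 11.4% and 11.4% of FPKM. Of the FPKM outside mitochondrially encoded genes they held 13.7%, 13.5% and 13.4%, so the order of the libraries turned with this scaling. Their median level was 274 FPKM, all 81 reached 1 FPKM in every library, and 14 were among the 40 most abundant genes. Rps3a1 led them at 1653, 1483 and 1475 FPKM, and ribosomal protein genes have many processed copies, so the split of reads between them and their copies is uncertain. Gm10260, a predicted gene at 710 ± 25.3 FPKM, also stood among the 40. Eef1a1, the elongation factor that brings aminoacyl-tRNA to the ribosome (ENSMUSG00000037742.14, chromosome 9, 78478449 to 78489151), was the most abundant nuclear gene by mean level, at 1886, 1938 and 1802 FPKM. Eef2, which moves the ribosome along, stood at 763, 986 and 982 FPKM. All 22 listed translation factors had a row, and they held 2.49 ± 0.252% of FPKM.

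After mitochondrially encoded genes were set aside, glycolysis genes held 0.750%, 1.02% and 0.910% and collagens 0.270%, 0.326% and 0.321% of FPKM, lowest in replicate 1. S100 proteins held 1.84%, 1.4% and 1.41% and mitosis genes 0.488%, 0.479% and 0.475%, highest in it.

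S100a4 was the gene most abundant after Eef1a1 outside the mitochondrial genome. It encodes a calcium-binding protein also called fibroblast-specific protein (ENSMUSG00000001020.8, chromosome 3, 90603771 to 90606045), and its TATAAA motif is printed above. Its level was 2084, 1659 and 1740 FPKM, so the order of Eef1a1 and S100a4 turned between replicate 1 and the others. S100a11, of the same family, stood at 1361 FPKM in replicate 1 and at 890 and 887 FPKM in replicates 2 and 3. The 9 S100 genes with a row together held 1.24 ± 0.0962% of FPKM, and 4 of them (S100a4, S100a11, S100a6 and S100a10) were above 100 FPKM on average. Fth1, the heavy chain of ferritin, stood at 1468 ± 66.0 FPKM, and Lgals1, the secreted lectin galectin, at 1452 ± 120 FPKM. Others among the 40 most abundant were the chaperones Hsp90ab1 (837 ± 68.3), Calr (577 ± 50.2) and Hsp90b1 (575 ± 55.9 FPKM) and the RNA-binding proteins Hnrnpa1 and Ybx1 (659 ± 48.9 and 628 ± 113 FPKM).

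**Figure D2:**
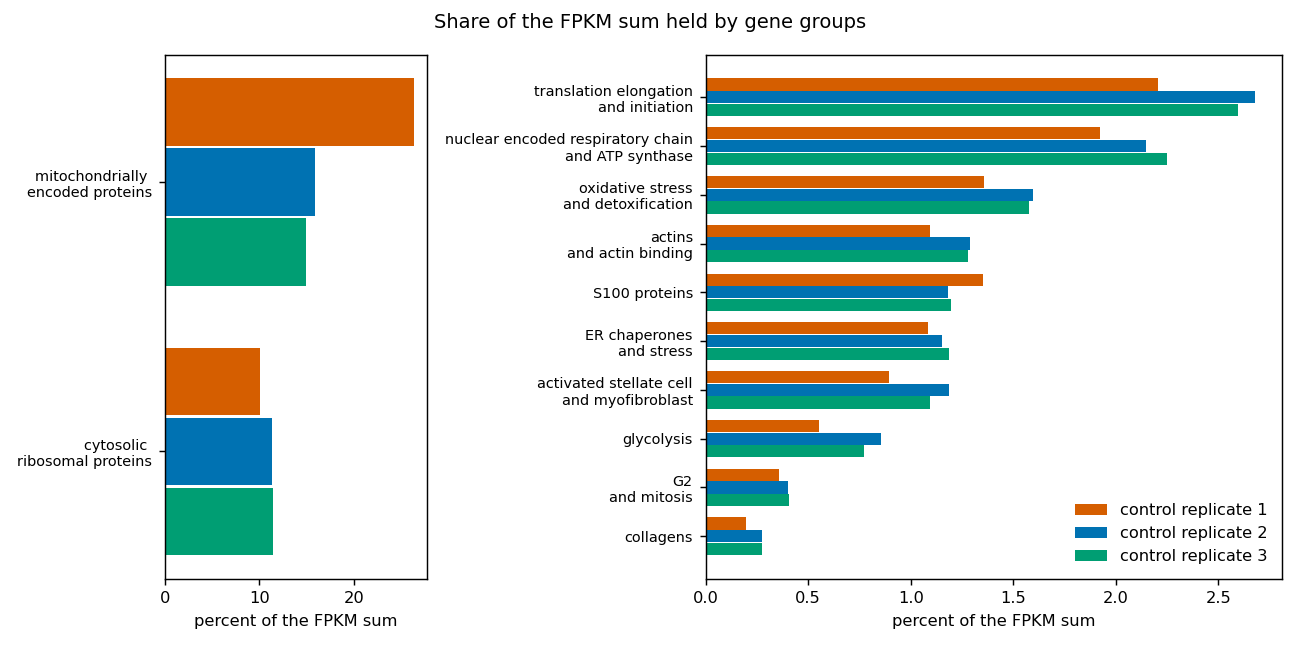
Percent of the FPKM sum (horizontal axes, from 0, with a different scale in each panel) held by 12 gene groups in each control library. Mitochondrially encoded genes held 26.4% in replicate 1 and 15.9% and 14.9% in the others, and since shares sum to the whole, those of the other groups depend on it.

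The contractile and cytoskeletal genes of myofibroblasts were abundant. Acta2 stood close to Actb, the actin of all cells (351, 381 and 363 FPKM), with a ratio of Acta2 to Actb of 0.854, 0.895 and 0.868. Of 34 actins and actin-binding genes 33 had a row, and 10 of these were above 100 FPKM on average, led by the actin-severing cofilin Cfl1 at 445 ± 34.3 FPKM. Tpm4, a tropomyosin that lies along actin filaments, stood at 370, 388 and 383 FPKM. Vim (vimentin, the intermediate filament of mesenchymal cells) stood at 267, 303 and 264 FPKM. The smooth muscle proteins Tagln (transgelin) and Myl9 (a myosin light chain) were at 42.7 ± 7.0 and 35.9 ± 1.07 FPKM. Cnn1, the calponin of differentiated smooth muscle, was the lowest gene of the activation list, at 1.83, 1.4 and 1.72 FPKM. Myh11 and Des, defining genes of smooth muscle, had no row.

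Among collagens, Col1a2 (the alpha 2 chain of collagen I) stood highest by mean level, at 105, 156 and 145 FPKM. Its level was 1.13, 1.38 and 1.27 times that of Col1a1 in replicates 1, 2 and 3. Col6a1, a chain of the beaded-filament collagen VI, followed at 112, 125 and 123 FPKM. Its range overlaps those of Col1a1 and Col1a2, and it lay above Col1a2 in replicate 1. Col3a1, the partner of collagen I in reticular fibres, stood at 17.2, 21.4 and 20.9 FPKM, and the ratio of Col1a1 to Col3a1 was 5.41, 5.28 and 5.45. Basement membrane chains Col4a2 and Col4a1 were at 43.8 ± 2.72 and 43.1 ± 7.27 FPKM, with ranges that overlapped. Of 24 collagen genes with a row, 15 reached 1 FPKM in every library and 8 stayed below it in every library. All 15 were lowest in replicate 1, as were 59.0% of all genes at 1 FPKM or more in every library.

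Of 25 genes that fold, modify and cross-link collagen, 22 had a row and all 22 reached 1 FPKM in every library, with a median of 20.7 FPKM. P4hb, a subunit of prolyl hydroxylase, stood at 232, 270 and 272 FPKM. Serpinh1, the collagen chaperone HSP47, varied more, at 79.8, 126 and 66.0 FPKM, and replicate 3 was its lowest library. Loxl1, a lysyl oxidase relative that acts on elastin, stood at 27.5, 47.2 and 56.5 FPKM, and Loxl2 had no row. In 20 of these 22 genes replicate 1 was the lowest library, against 59.0% of all genes at 1 FPKM or more in every library.

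Other matrix proteins were led by those of wound repair. Fn1 (fibronectin) stood at 245, 273 and 267 FPKM, and Sparc, a collagen-binding glycoprotein, at 151, 197 and 179 FPKM. Thbs1 and Thbs2 (thrombospondins, matrix glycoproteins that regulate adhesion) were at 120 ± 13.8 and 93.1 ± 9.90 FPKM, and Tnc (tenascin C) at 70.4 ± 7.16 FPKM. Of 40 matrix glycoproteins and proteoglycans 32 had a row, 28 reached 1 FPKM in every library and 10 were among the 1000 most abundant genes. Dcn (decorin, a small proteoglycan that binds collagen fibrils) was at 9.52 ± 0.471 FPKM, while Lum (lumican) and Fmod (fibromodulin) stayed below 1 FPKM. Postn (periostin) and Eln (elastin) had no row.

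Of 38 matrix proteases and inhibitors 30 had a row, led by Cst3 (cystatin C, an inhibitor of cathepsins) at 150, 205 and 214 FPKM. Timp2, an inhibitor of metalloproteases, stood at 145, 189 and 179 FPKM, and Timp1 at 39.7, 52.1 and 49.2 FPKM. Mmp2 (gelatinase A), at 55.7, 76.8 and 77.0 FPKM, and Mmp14, the membrane protease that activates it, at 32.8 ± 3.81 FPKM, were the highest matrix metalloproteases. Mmp9 and Mmp13 stayed below 1 FPKM in every library, and Mmp3 was listed at 0 in all 3. Plau (urokinase, which activates plasminogen) was at 14.6 ± 2.72 FPKM.

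**Figure D3:**
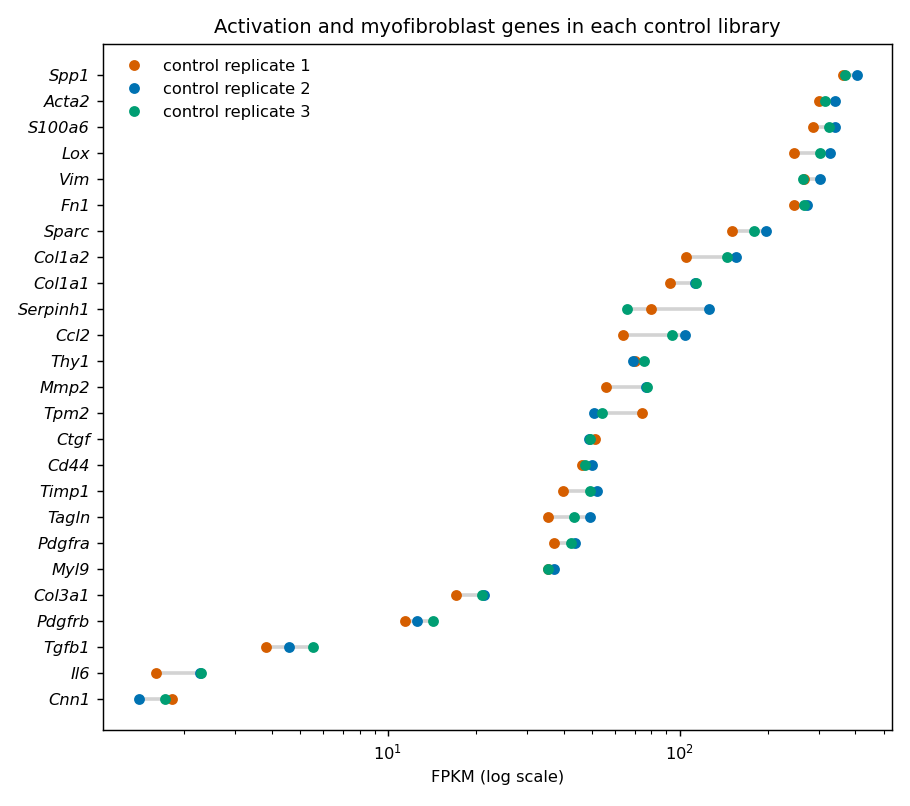
FPKM (horizontal log axis) of the 25 genes of the activated stellate cell and myofibroblast list with a row, with 1 point per control library and a grey line over their range. Levels run from Cnn1 (mean 1.65 FPKM) to Spp1 (mean 378 FPKM). Replicate 1 is the lowest point for 19 of the 25, against 59.0% of all genes at 1 FPKM or more in every library.

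Few of the listed genes of the quiescent, vitamin A storing state had a row. The highest of the 9 with a row was Plin2, a lipid droplet coat protein that many cells express, at 28.7, 41.1 and 37.2 FPKM. Hgf, the hepatocyte growth factor that stellate cells secrete, stood at 10.6, 11.9 and 11.9 FPKM. Bambi, a decoy receptor that restrains TGF-beta signalling, stood only at 0.949, 1.80 and 1.78 FPKM. The other 22 had no row, among them Lrat (which makes retinyl esters), Des (desmin), Gfap, Reln, Hhip, Ngfr, Lhx2, Hand2, Colec11, Cygb and Pparg. The cells thus had most of the listed myofibroblast genes that cultured stellate cells acquire, though Postn, Loxl2 and Fap had no row and Cnn1 was low. Most defining genes of quiescent stellate cells had no row by which to check the label.

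Of 30 genes of vitamin A handling and lipid droplets 21 had a row, with a median of 6.13 FPKM, close to that of all genes with a row (6.99 FPKM). Crabp1, which binds retinoic acid in the cytosol, stood far above the rest at 218, 247 and 259 FPKM and ranked 132. The next was Fabp5, a fatty acid binding protein, at 40.5 ± 5.20 FPKM. The retinoic acid receptors Rarg and Rara were at 24.1 ± 8.37 and 6.56 ± 1.31 FPKM, and Cyp26b1, which degrades retinoic acid, at 2.39 ± 0.141 FPKM. Aldh1a2, which makes it, had no row.

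The lists of 10 other cell types (of liver, blood and pancreas, and adipocytes and nerve cells) had few genes with a row. They held 186 entries, of which 27 had a row, against 700 of the 1041 genes of all lists. Of the 27, 15 reached 1 FPKM in every library and 2 reached 10 FPKM on average. Those 2 were Sox9, a transcription factor of duct cells and of mesenchyme, at 22.6, 20.9 and 21.3 FPKM, and Aqp1, a water channel of ducts and endothelium, at 17.0, 19.2 and 23.0 FPKM. The keratins and adhesion protein that define duct epithelium were close to 0. Krt19 and Epcam were listed at 0 in replicates 1 and 2 and at 0.451 and 0.378 FPKM in replicate 3, and Krt18 stood at 0.583, 0.472 and 0.509 FPKM. Krt8 was at 0.251 and 0.127 FPKM in replicates 1 and 2 and at 1.27 FPKM in replicate 3. Of all genes with a row, 41 and 44 were listed at 0 in replicates 1 and 2 but only 16 in replicate 3. The duct cell list as a whole held 0.0144%, 0.0163% and 0.0184% of FPKM, most of it from Sox9 and Aqp1. Of the FPKM outside mitochondrially encoded genes it held 0.0196%, 0.0193% and 0.0216%.

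Of 28 hepatocyte genes only Hp (haptoglobin), Ass1 (a urea cycle enzyme) and Asgr1 (the asialoglycoprotein receptor) had a row, with means of 6.66 ± 1.39, 3.62 ± 0.698 and 1.75 ± 0.481 FPKM. Alb, Ttr, Apoa1 and Hnf4a had no row, and the list summed to 0.00348% to 0.00499% of FPKM. Of 27 macrophage genes 5 had a row. Cd14, a lipopolysaccharide co-receptor that fibroblasts can also express, was at 6.32, 10.9 and 9.91 FPKM and the lysosomal protein Cd68 at 3.08, 4.60 and 4.41 FPKM, while Csf1r, Lyz2 and Ctss stayed below 1 FPKM. Adgre1, Clec4f and Ptprc had no row. Of 24 genes of liver sinusoidal endothelium 4 had a row, and the highest was Gata4, a transcription factor also found in stellate cells, at 2.80 ± 0.373 FPKM. Cdh5, the cadherin of endothelium, stood at 1.27, 0.984 and 1.00 FPKM, and Pecam1, Stab2 and Lyve1 had no row. No gene of the lymphocyte (23 genes) or neutrophil (13 genes) list had a row. In bulk RNA, few cells of a type and little RNA per cell cannot be told apart.

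Lists of other mesenchymal cells were partly filled. Of 16 smooth muscle and pericyte genes 6 had a row, with a median of 2.52 FPKM, below that of all genes, and the highest was Smtn (smoothelin) at 11.8, 13.2 and 15.2 FPKM. Of 18 portal fibroblast genes 12 had a row and 9 reached 1 FPKM in every library, with a median of 21.9 FPKM. Msln (mesothelin, a surface protein of mesothelium and of activated portal fibroblasts) was high, at 76.7, 102 and 112 FPKM. Thy1, a surface glycoprotein of fibroblasts, stood at 70.2, 69.2 and 75.4 FPKM. Ly6a (Sca-1, a marker of mesenchymal progenitors) stood at 11.7, 26.4 and 35.8 FPKM in replicates 1, 2 and 3, a CV of 49.4%. Of 16 mesothelial genes 7 had a row, with Pdpn (podoplanin) at 68.5 ± 5.80 and Bnc1 (a zinc finger protein) at 8.65 ± 0.695 FPKM. Wt1, Upk3b and Gpm6a had no row, and Gas6 and Mfap4 of the portal fibroblast list stayed below 1 FPKM. The part of portal fibroblasts or mesothelial cells in these levels was not tested.

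**Figure D4:**
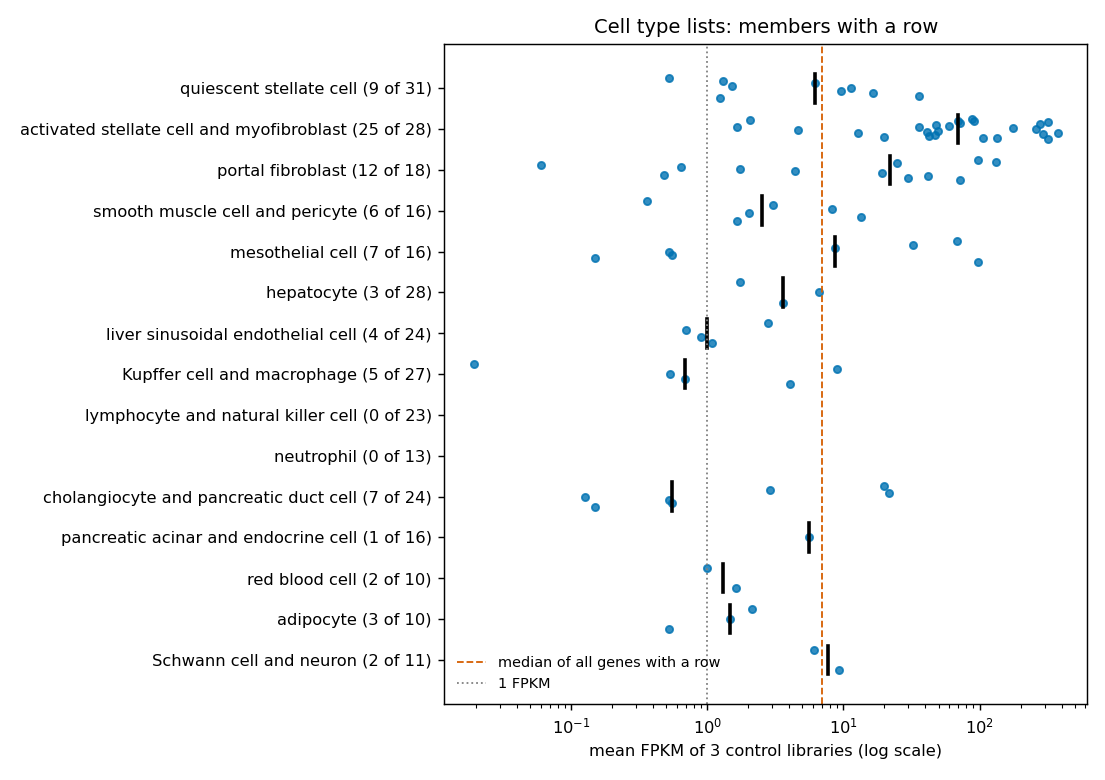
Mean FPKM over the 3 control libraries (horizontal log axis) of each gene with a row in 15 cell type lists, with 1 point per gene and a black bar at the list's median. Each list's name gives how many of its genes had a row. The activation list (25 of 28, median 69.8 FPKM) and the portal fibroblast list (12 of 18, median 21.9 FPKM) lie mostly to the right of the median of all genes, and the lymphocyte and neutrophil lists are empty.

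Genes of DNA replication and mitosis were well expressed. Pcna, the sliding clamp of DNA polymerase, stood at 75.4, 80.1 and 74.1 FPKM, and Mcm4 and Mcm3, of the replicative helicase, at 56.5 ± 1.83 and 44.9 ± 2.97 FPKM. Top2a (topoisomerase II alpha, which untangles chromosomes before division) stood at 103, 103 and 100 FPKM and ranked 349, just below Col1a1. Mki67, the proliferation antigen Ki-67, was at 66.5, 53.0 and 59.7 FPKM. Cdk1, the kinase that starts mitosis, was at 34.2 ± 2.97 FPKM and its partner Ccna2 (cyclin A) at 45.7 ± 3.56 FPKM. The levels of these 59 genes were among the steadier ones, with a median CV of 6.55% for S phase and 6.83% for mitosis against 12% for all genes at 1 FPKM or more. Exceptions were Cdc20, which activates the anaphase-promoting complex, at 44.9, 73.1 and 70.7 FPKM, Fen1 (flap endonuclease) at 19.2, 28.1 and 10.2 FPKM, and the licensing factor Cdt1 at 3.97, 13.0 and 6.91 FPKM.

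Brakes on the cycle were present beside it. Of 20 such genes 16 had a row and all 16 reached 1 FPKM in every library. Ccng1 (cyclin G1, a target of p53) led at 155, 157 and 145 FPKM. Cdkn1a (p21, an inhibitor of cyclin-dependent kinases) stood at 74.1, 76.8 and 77.5 FPKM, above Mcm3 in every library, and Trp53 itself at 33.3, 41.1 and 37.3 FPKM. Cdkn2a and Cdkn2b, which encode the inhibitors p16, p19Arf and p15, had no row, nor had Cdkn1c and Gdf15. Mtap, the gene next to Cdkn2a on chromosome 4 in RefSeq (GRCm38.p6) and named here after its values were seen, was well expressed, at 157, 189 and 172 FPKM. Farther along, Elavl2 was at 1.95, 1.69 and 1.41 FPKM and Caap1 at 5.84, 6.37 and 7.29 FPKM, while Dmrta1, Zfp352 and Ifne had no row. The state of this locus was not tested. Hmga2, a chromatin protein of embryonic and growing cells, stood at 116, 117 and 117 FPKM, a CV of 0.188%.

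Among genes of secreted signals, Mif (macrophage migration inhibitory factor) was the highest cytokine, at 381, 466 and 521 FPKM, followed by Cxcl5, which draws neutrophils, at 177, 213 and 189 FPKM. The monocyte attractants Ccl7 and Ccl2 were at 94.1 ± 8.20 and 87.4 ± 21.1 FPKM. Of 38 chemokines and cytokines 23 had a row and their median was only 3.15 FPKM, with Il6 at 1.60, 2.27 and 2.29 FPKM. Cxcl12, a chemokine of resting stellate cells, and Cxcl10, Il1b and Tnf had no row. Fgf7, a fibroblast growth factor that acts on epithelia, led the growth factors at 200, 172 and 167 FPKM. Kitl (stem cell factor) was at 48.7 ± 3.49 FPKM and Vegfa, the angiogenic factor, at 16.6 ± 0.356 FPKM, while Igf1 and Pdgfb had no row. Igfbp6, which binds insulin-like growth factor II, stood at 197, 237 and 259 FPKM, and Igf2 itself stayed below 0.1 FPKM in every library.

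Of 38 receptor tyrosine kinases 22 had a row, with a median of 8.63 FPKM. Axl, the receptor for Gas6, was the highest of them, at 83.6, 132 and 127 FPKM. Pdgfra stood at 37.0, 43.9 and 42.4 FPKM and was 3.24, 3.49 and 2.96 times as high as Pdgfrb in replicates 1, 2 and 3. Ddr2, a receptor for fibrillar collagen, was steady at 34.6, 34.7 and 34.1 FPKM, and Met, the receptor for Hgf, stood at 14.7 ± 1.09 FPKM. Among integrins, the common beta 1 chain Itgb1 stood at 245 ± 6.66 FPKM and the next, Itga5 (the fibronectin receptor alpha chain), at 24.0 ± 4.43 FPKM. Of 25 integrins only 11 had a row, and Itga1, Itga8 and Itga11 did not.

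In the TGF-beta pathway, the main driver of collagen synthesis in stellate cells, the highest TGF-beta ligand was Tgfb3. Tgfb1 stood at 3.81, 4.59 and 5.55 FPKM and Tgfb3 at 16.8, 17.3 and 18.7 FPKM, or 4.39, 3.77 and 3.37 times the level of Tgfb1. The receptors Tgfbr2 and Tgfbr1 were at 8.01 ± 2.02 and 4.91 ± 0.38 FPKM and the co-receptor Tgfbr3 at 28.5 ± 3.11 FPKM. Fstl1, a secreted follistatin relative, was the highest of the 22 pathway genes with a row, at 93.2 ± 6.98 FPKM. The 15 listed genes of the Hippo pathway and its targets all had a row and reached 1 FPKM in every library. Ankrd1, Cyr61 and Ctgf, targets of YAP and TEAD, stood at 88.0 ± 7.49, 65.1 ± 2.89 and 49.7 ± 1.43 FPKM.

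Mesenchymal transcription factors were led by Prrx1, a homeobox factor of limb and fibroblast mesenchyme, at 106, 108 and 103 FPKM. Fosl1 and Jun, partners in AP-1, were at 82.7 ± 13.9 and 61.1 ± 5.88 FPKM, and Osr1, a zinc finger factor of mesoderm, at 55.8 ± 6.23 FPKM. Of 50 such genes 39 had a row and 38 reached 1 FPKM in every library, with Twist1 at 18.7, 18.8 and 21.4 FPKM and Snai1 at 17.0, 16.5 and 21.7 FPKM. The stellate cell factors Tcf21, Hand2 and Lhx2 had no row.

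The 3 libraries were close to each other, but replicate 1 stood apart. Over all genes, on the log2(FPKM + 1) scale, Pearson's r was 0.990 between replicates 2 and 3, 0.980 between 1 and 2 and 0.981 between 1 and 3. These are correlations across genes, which are not independent replicates. The median coefficient of variation (CV, the SD divided by the mean) of the 9891 genes at 1 FPKM or more in every library was 12%. It was 5.74% over replicates 2 and 3 alone, but a CV over 2 libraries is not like for like with one over 3. Compared pair by pair, the median SD of the log2 level was 0.0714 for replicates 2 and 3. It was 0.146 for replicates 1 and 3 and 0.149 for replicates 1 and 2. The CV exceeded 0.3 in 614 genes (6.21%), and in 290 (2.93%) over replicates 2 and 3. Replicate 1 was the library farthest from the other pair in 58.0% of these genes, against 21.8% for replicate 2 and 20.2% for replicate 3. It was the lowest library in 59.0% of genes and the highest in 24.3%.

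By level, the median CV was 14.5% for genes with a mean of 1 to 3 FPKM, 12.5% from 3 to 10, 11% from 10 to 30, 10.0% from 30 to 100 and 10.6% from 100 to 1000 FPKM. Among the 24 genes with a mean of 1000 FPKM or more it was 23.7%. It was 5.28% for the same genes over replicates 2 and 3. For the nuclear genes among them it was 9.85% over all 3 libraries, with values scaled to equal sums without mitochondrially encoded genes. The mitochondrially encoded genes of this group are left out of that value, so it is not the 23.7% rescaled.

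The displacement of replicate 1 differed between genes of low and of high GC content. When genes were split into 5 groups of equal size by the GC content of their transcripts, the median log2 ratio of replicate 1 to the mean of the other pair was -0.01 in the group of lowest GC content, -0.07, -0.14 and -0.24 in the next ones and -0.35 in the highest. Across 9837 genes, Spearman's rho between GC content and this ratio was -0.389, while it was 0.0298 for transcript length. A trend with GC content also lay between replicates 2 and 3. For the ratio of replicate 3 to replicate 2, rho was 0.326 and the median log2 ratio was 0.17 in the group of highest GC content. The sign of this rho depends only on which library is divided by the other. Collagens, with a median GC content of 56.8% against 49.8% for all genes, had a median log2 ratio of -0.30 in replicate 1. Mitochondrially encoded genes, with a median GC content of 37.1%, had a median log2 ratio of 0.91, outside the range of the 5 groups. Among them mt-Co3, with a GC content of 38.9%, stood at 0.15. The part of GC content, RNA quality or mitochondrial RNA in the levels of replicate 1 was not tested.

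**Figure D5:**
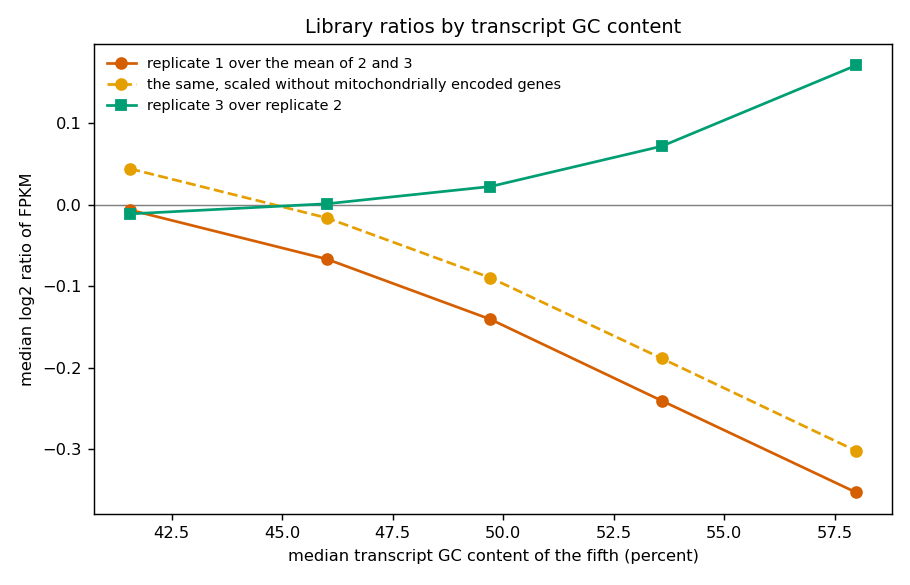
Median log2 ratio of FPKM between control libraries (vertical axis) in 5 groups of equal size by transcript GC content (horizontal axis, percent), for 9837 genes at 1 FPKM or more in every library. The ratio of replicate 1 to the mean of replicates 2 and 3 runs from -0.01 to -0.35 with rising GC content, keeps that slope after scaling without mitochondrially encoded genes, and the ratio of replicate 3 to replicate 2 rises to 0.17.

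Among genes with a mean of 10 FPKM or more, the most variable was Gm45717, a predicted gene on chromosome 7 (140949222 to 140955937) that shares exon sequence on its strand with another gene. It stood at 208 FPKM in replicate 1 and at 1.62 and 0.562 FPKM in replicates 2 and 3. Nek7 (a mitotic kinase that also serves the NLRP3 inflammasome) was at 27.1 FPKM in replicate 1 and 6.19 and 5.86 FPKM in the others, and Gpatch4 at 45.6, 9.69 and 12.2 FPKM. Replicate 2 was the odd library for Gpx1 (glutathione peroxidase), at 96.8, 35 and 121 FPKM, for the gap junction protein Gja1, at 17.5, 4.80 and 13.6 FPKM, and for Txndc5 (a protein disulfide isomerase), at 23.1, 64.1 and 30.4 FPKM. Replicate 3 was the odd one for the adaptor Grb2, at 20.7, 17.1 and 40.3 FPKM, and for Igfbp4, at 12.7, 15.0 and 5.57 FPKM. Of the 50 most variable nuclear genes, 42.0% share exon sequence with another gene on either strand, against 34.6% of the 4307 genes at this level. On the same strand these shares were 20.0% and 8.40%, and the part of shared reads in the spread was not tested.

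The steadiest genes at this level included Glyr1, a chromatin reader, at 46.1, 46.0 and 46.2 FPKM, and the small GTPases Rap1a and Rap1b, with CVs of 0.336% and 0.477%. F3, tissue factor, which starts blood coagulation, stood at 41.0, 40.9 and 41.3 FPKM. With 3 libraries, a CV this small in some of 4307 genes is a description of these libraries only.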

How the data were processed

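Stellate cell RNA was extracted with Trizol and made into 9 TruSeq libraries, per the labels' protocols. Per the submitters' processing notes, reads were trimmed with cutadapt, aligned to GRCm38 with HISAT2 2.0.4 and quantified with StringTie 1.2.3. The authors deposited FPKM per gene, normalized for transcript length and library size. Neither the cutadapt version nor any use of strand is stated in those notes.

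Only the 3 control columns were described. Level counts use a minimum of 1 FPKM, CVs the genes at this level in all 3 libraries, and log2 values a pseudocount of 1. Overlaps and GC content come from GENCODE M21 exons with bedtools 2.31.1, and 99.9% of identifiers were found there. Scripts used Python 3.11.15, numpy 2.4.6 and pandas 2.3.3 and were tested on simulated data.

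The 48 gene lists (1041 genes, 700 with a row) and the libraries were chosen with earlier results of these data known. Families picked by symbol were added after the values were seen. Names follow a rule: the 40 most abundant genes, the 12 most and least variable at 10 FPKM or more, 8 at each end per library, up to 6 per list, all cell type genes and 5 markers. Genes outside it (list members below the highest 6, Mtap and other neighbours of Cdkn2a, Hox genes) were chosen after their values were seen. No test was made, since all 3 libraries are of 1 group. Alternatives were leaving out each library, equal sums, leaving out mitochondrially encoded genes, and other minimums and pseudocounts.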

Additional observations from a re-analysis of the deposited data

How the results depend on the processing

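The 10 most abundant genes held 17.8% of FPKM on average, 14.3% to 19.7% when 1 library was left out, and 6.27% of the rest once mitochondrially encoded genes were left out. The 9891 genes at 1 FPKM or more became 9927 to 10095 with 1 library left out, 10583 at a minimum of 0.5 FPKM and 6115 at 5 FPKM. With values scaled to 1 equal sum per library (TPM), 10845 genes reached a value of 1, and 10882 without mitochondrially encoded genes. That sum is larger than the FPKM sums of 269623 to 299289, so a value of 1 there is a lower cut than 1 FPKM. These counts are therefore not at the threshold of the 9891. The 614 genes with a CV above 0.3 became 290 without replicate 1, 1095 without replicate 2 and 1033 without replicate 3. They numbered 878 with equal sums per library and 564 with mitochondrially encoded genes left out and equal sums. With no minimum beyond a mean above 0 they numbered 1080, and at 10 FPKM or more in all 3 libraries 116. The 1080 and 116 come from gene sets of other sizes, so they are not like for like with the 614. The median SD of the log2 level, 0.148, was 0.0714 to 0.149 when 1 library was left out, the lowest without replicate 1, and 0.171 with a pseudocount of 0.1. Shares of gene groups and ranks of markers were recomputed too. Leaving out mitochondrially encoded genes raises every other share and moves every lower gene up the ranks by construction, as for Acta2 (mean rank 74.3 against 86.7) and Spp1 (54.3 against 66.7). No paired analysis was possible because all libraries described are of 1 group. The unknown depth limits what can be said of genes near 1 FPKM.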

Other observations

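The Hox genes with a row were mostly of the A cluster. They are transcription factors that record a cell's position along the body axis. Of 15, 8 were Hoxa, 3 Hoxc and 4 Hoxd genes, and no Hoxb gene had a row. The highest were Hoxa7 at 20.0, 17.4 and 17.2 FPKM, Hoxa5 at 12.4, 17.0 and 16.2 FPKM and Hoxd8 at 10.8, 9.87 and 9.74 FPKM. Of genes numbered 9 or higher only Hoxd9 (3.54 ± 0.665 FPKM) and Hoxa10 (0.903 ± 0.0958 FPKM) had a row.

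All 31 listed genes of cholesterol and fatty acid synthesis reached 1 FPKM in every library, and Scd2, a stearoyl-CoA desaturase, led them at 190, 261 and 237 FPKM. Glycolysis genes were lowest in replicate 1 for 14 of 17, against 59.0% of all genes at 1 FPKM or more in every library. Pgk1 (phosphoglycerate kinase) stood at 264, 431 and 369 FPKM. Interferon-related membrane proteins were abundant, with Ifitm2 at 222, 394 and 406 FPKM and Ifitm3 at 226, 259 and 250 FPKM. Other interferon targets were low, with Ifit1 at 1.93, 2.16 and 2.05 FPKM and Oas1a at 0.556, 0.431 and 0.419 FPKM. B2m, the light chain of MHC class I, stood at 563, 455 and 448 FPKM while the MHC class II chaperone Cd74 was listed at 0 in replicates 1 and 2 and at 0.205 FPKM in replicate 3. By annotated position, Erdr1 was the only gene on the Y chromosome with a row, at 22.7, 14.7 and 26.5 FPKM. The sex of the cells was not tested.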
